A study of Mus musculus with 3 samples.

Results

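The insulin-rich beta cells described here are cell barcodes of a WT library and of a library labelled SC35-KO in which Ins1 and Ins2 together made up at least 25% of the unique molecular identifiers (UMIs). Barcodes with under 500 genes, under 1000 UMIs or over 20% mitochondrially encoded UMIs were left out, and Gcg, Sst and Ppy each had to stay under 2%. The rule found 4791 such cells in WT and 5138 in the library labelled SC35-KO, together 9929 of the 20973 cells kept in these 2 libraries and of the 28374 kept in the series. The hormone and mitochondrial shares chose the cells and are therefore descriptions only.

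The study profiled single cells of pancreatic islets from mice 9 months old in 3 genotypes, WT, ASF-KO and SC35-KO, with 1 library each. Islets were freed with collagenase, picked by hand and dissociated with trypsin, and the droplet kit tags the 3' ends of transcripts. Per its title, the series asks what SRSF1 and SRSF2 do as diabetes develops. The labels give neither the deleted exons, the Cre driver or targeted cell type, nor the number of mice in a library. With 1 library per genotype no difference could be tested, and every ratio below compares libraries. The 95% intervals given with values hold counting error alone.

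SC35 is the older name of SRSF2, a serine/arginine-rich (SR) protein that binds exon sequences in pre-mRNA, helps to define splice sites and gathers in nuclear speckles. Beta cells make and store insulin: preproinsulin enters the endoplasmic reticulum (ER) through the translocon, is folded there, and passes through the Golgi apparatus into granules that are released when glucose rises. When this program is disturbed, beta cells can lose mature markers and switch on genes normally silent in them, a state called dedifferentiation, of which Aldh1a3 is a widely used marker.

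Beta cell genes that the rule did not use were examined first. Mafa, a transcription factor of mature beta cells, stood at 608 CPM (UMIs scaled to a shared total) in the WT cells and at 518 in the cells labelled SC35-KO, against 11.4 and 14.3 in alpha cells of the same libraries. Slc2a2, the glucose transporter of mouse beta cells, stood at 956 and 663 CPM, against 14.0 and 12.7 in alpha cells. These markers, named outside the rule for genes, match the label in both libraries. The scaling total leaves out Ins1, Ins2, Iapp and mitochondrially encoded genes, and alpha, delta and endothelial cells were chosen by their own hormones or markers. Gcg stayed in the alpha total, at 200238 and 276979 CPM, and the median log2 ratio of all measured genes was -0.17 in alpha (a ratio of 0.889), 0.06 in delta and 0.11 in endothelial cells. Values of these classes below are read against those medians. With Gcg left out of the total, a setting added after the data were seen, every alpha log2 ratio is higher by 0.15 and the alpha median is -0.02.

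The insulin-rich cells of the 2 libraries differed in UMIs per cell of genes other than insulin. Median insulin UMIs per cell were 11771 in WT and 10925 in the library labelled SC35-KO, while the median of all UMIs used for scaling was 8730 and 5028 and that of detected genes 3648 and 2583. Insulin therefore took a median of 53.1% of a WT cell's UMIs and 63.0% of a cell's labelled SC35-KO. Ins2 UMIs per Ins1 UMI were close, at medians of 2.82 and 2.77, and Iapp, the amyloid peptide released with insulin, took 4.44% and 5.20% of UMIs. A scaled ratio of 1 thus stands for 0.59 times the UMIs per cell, and when all UMIs are used as the total, every log2 ratio below is lower by 0.43. Median UMIs of all genes were 22463 and 17395 per insulin-rich cell. Medians were also lower labelled SC35-KO in alpha (9900 and 7740), delta (7828 and 5529) and endothelial cells (2962 and 2536). Hematopoietic cells gave 3228 and 3243. Lower counts per cell were thus not confined to insulin-rich cells. Whether cells held less RNA or less of it was captured cannot be told apart here.

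**Figure D1:**
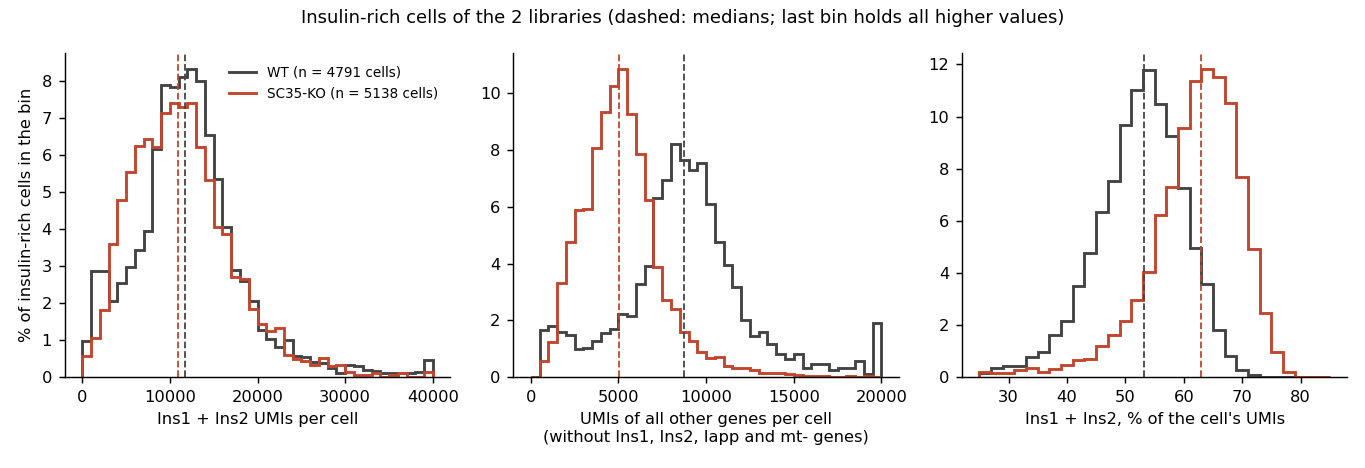
Distribution over insulin-rich cells of insulin UMIs, of UMIs of the genes used for scaling and of the insulin share, in % of cells per bin for WT (grey) and the library labelled SC35-KO (red). The insulin UMIs overlap widely (dashed medians 11771 and 10925), while the other UMIs are lower in the library labelled SC35-KO (8730 and 5028).

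Few cells lay near the limits of the rule. With insulin shares of 20 to 25%, just outside, there were 24 and 31 cells, and with 25 to 30%, just inside, 37 and 22. A second hormone at 1 to 2% was found in 96 and 140 cells, and at 2 to 3%, where cells were left out, in 86 and 111. The libraries held 10266 and 13919 barcodes and shared 43 of them, of which 7 were insulin-rich in both. The 2 libraries held 154099078 and 150116204 UMIs, and the insulin-rich cells 42434209 and 26849650 UMIs of scaling genes.

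The gene named by the label was read before the others. Srsf2 (chromosome 11, 116849901 to 116853094, GRCm38) gave 3062 UMIs in the WT cells and 2507 in those labelled SC35-KO. These are 72.2 and 93.4 CPM, a ratio of 1.29 (1.23 to 1.36), and at 0.962 when all UMIs were the total. After each cell was thinned to 2000 UMIs of scaling genes, an Srsf2 UMI was found in 13.5% of WT cells and in 17.3% of the others. Srsf2 was thus not clearly lower, so the library is named by its label throughout and each direction rests on that label. Tags at the 3' end outside a deleted part would check nothing. Srsf1, the target of the third genotype, had a ratio of 1.41 (1.35 to 1.47).

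A gene counted as measured where either library held it at 10 CPM. Of 9704 measured genes, 431 (4.44%) were at least 1.5-fold higher in the library labelled SC35-KO and 268 (2.76%) at least 1.5-fold lower, 699 (7.20%) either way. The median log2 ratio was 0.01, so about as many genes had a ratio above 1 as below, and the quartiles were -0.17 and 0.21. Of the measured genes, 300 reached the floor only in the library labelled SC35-KO and 202 only in WT. Such genes lean by construction to the side where they passed. Among the 9202 at the floor in both, 3.29% were higher and 2.03% lower. These shares are the background for every gene group below.

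Of 21 measured SR protein genes, 1 was 1.5-fold higher and 1 lower. Srsf9 stood at 77.7 CPM in WT and 144 labelled SC35-KO (ratio 1.86, 1.77 to 1.95), while Son, a large speckle protein, stood at 908 and 597 (0.657, 0.645 to 0.669). Both were on the same side in alpha cells, at 1.5 and 0.575. Core spliceosome genes had 4 of 40 members higher and none lower, among them Magoh of the exon junction complex at 1.64 and Sf3b5 at 1.55, with a list median of 0.03. All 30 measured hnRNP genes and all 13 of nonsense-mediated decay lay within 1.5-fold, as did most of all measured genes.

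Aldh1a3 (chromosome 7, 66390890 to 66427517), which makes retinoic acid, had the highest ratio among the 30 genes chosen by rank, at 5.37 CPM in WT and 57.1 in the library labelled SC35-KO (10.6-fold, 9.23 to 12.3, from 228 and 1532 UMIs). It reached the floor only in the latter. At 2000 UMIs of scaling genes per cell, 0.813% of WT cells (0.573 to 1.12, exact binomial) and 9.15% of cells labelled SC35-KO (8.35 to 9.99) had an Aldh1a3 UMI. Endothelial cells, in which the gene is not a known marker, gave 0.765% and 1.24%, at median depths of 2814 and 2303 scaling UMIs against 8730 and 5028. Thinning left out 242 and 263 insulin-rich cells and 146 and 152 endothelial cells. Without thinning the insulin-rich shares were 3.55% and 18.8%. The endothelial intervals were wide, at 0.209 to 1.95 in WT and 0.256 to 3.58 labelled SC35-KO. The WT share of insulin-rich cells lies within the first, and the share labelled SC35-KO lies above the second. Within 4 ranges of cell depth the Aldh1a3 ratio was 8.57, 7.25, 13.0 and 13.1, from shallow to deep, and it was above 1 in each. The higher side was not confined to insulin-rich cells. In alpha cells the Aldh1a3 ratio was 2.07, or 2.29 with Gcg left out of the total, against the alpha median of 0.889.

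Several other genes of dedifferentiation and progenitor states stood on the same side. Of 25 such genes, 10 were measured, 6 of them at least 1.5-fold higher and none lower, with a median log2 ratio of 0.85 against 0.01 over all measured genes. Aldh1a3 and the oxytocin receptor Oxtr passed the floor only in the library labelled SC35-KO. Among the 8 at the floor in both, 4 were higher and the median was 0.56. With a floor of 50 CPM only 5 members were measured, Aldh1a3 among them, and the median was 0.30. The list was chosen with earlier results of these data known, so its median is no independent support. Serpina7, the thyroxine-binding globulin, stood at 10.8 and 48.1 CPM (4.44-fold, 3.98 to 4.94), and Bambi, a decoy receptor of TGF-beta signalling, at 74.1 and 155 (2.10). Fabp3, a fatty acid carrier, had a ratio of 1.78 and the surface protein Cd24a 1.82, while the keratins Krt8 and Krt18 stood at 0.915 and 0.951. In alpha cells the list median was -0.02 and Serpina7 stood at 18.1 and 18.3 CPM, and in delta cells the median was 0.43. The progenitor factors Neurog3, Sox9, Myc, Pou5f1 and Nanog did not reach the floor in either library.

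Most genes that mark mature beta cells lay within 1.5-fold, as did most of all measured genes. Of 22 measured beta cell transcription factors, 21 lay within 1.5-fold and Insm1 was higher at 208 and 323 CPM (1.55), with a list median of -0.17. Of these factors, 16 had a ratio below 1 and 6 above. Neurod1, an activator of insulin transcription, stood at 549 and 391 CPM (0.712), Pax6 at 0.693, Foxo1 at 0.740 and Nkx2-2 at 1.33. Of 23 maturity and glucose-sensing genes, Sytl4, Gad1 and Sstr3 were 1.5-fold lower and Cltrn, which is enriched in beta cells, higher (592 and 1084 CPM, 1.83). The list median was -0.19 against 0.01 over all measured genes, with 17 members below a ratio of 1 and 6 above. Among the 22 at the floor in both, 3 were lower (13.6%) and 1 higher (4.55%), against 2.03% and 3.29% of all genes. Gad1, which makes GABA in beta cells, stood at 176 and 87.0 CPM (0.495, 0.472 to 0.519), against 1.02 in alpha cells, where it was near 3 CPM in both libraries. The somatostatin receptor Sstr3 had a ratio of 0.596 and the fatty acid receptor Ffar1 0.669. Slc30a8, the zinc transporter of insulin granules, stood at 0.780 and Kcnj11, a subunit of the ATP-sensitive potassium channel, at 0.718, beside its partner Abcc8 at 1.21.

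Pappa2 (chromosome 1, 158711727 to 158980490), a protease that cleaves carriers of insulin-like growth factors, stood at 48.9 CPM in WT and 239 in the library labelled SC35-KO (4.88-fold, 4.64 to 5.13). Alpha cells held more of it and were on the other side, at 667 and 518 CPM (0.776, or 0.858 with Gcg left out of the total). At 2000 UMIs of scaling genes, 7.30% and 32.0% of the insulin-rich cells had a Pappa2 UMI, against 1.91% and 5.37% of endothelial cells. Scn3a, a voltage-gated sodium channel, stood at 35 and 92.6 CPM (2.65, 2.48 to 2.82), against 0.855 in alpha cells. Car8, a relative of carbonic anhydrases that binds the IP3 receptor, and Snhg18, a host of small nucleolar RNA, gave 2.49 and 2.82 in insulin-rich cells, and 0.835 and 0.859 in alpha cells. Against the alpha median of 0.889, Scn3a, Car8 and Snhg18 were near the level of most alpha genes, at 0.946, 0.924 and 0.95 with Gcg left out. The difference between the classes was not tested.

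Several other high-ranking genes were also above 1 in alpha cells. Cd44, a receptor of hyaluronan, stood at 59.2 and 131 CPM (2.22), though alpha cells held only 0.676 and 2.88 CPM. Hypk, a partner of the N-terminal acetyltransferase, stood at 2.32, 1.49 and 2.07 in insulin-rich, alpha and delta cells. Slco1a6, an organic anion transporter, stood at 31.3 and 72.8 CPM (2.32), and Tmem128 at 31.9 and 68.8 (2.16, alpha cells 1.72). Insig1, which holds the sterol sensor in the ER, stood at 2.18 (alpha cells 1.19, 0.983 to 1.44), but the list of sterol synthesis had 24 of 25 members within 1.5-fold. Also among the 15 highest were Dapl1 (3.15, alpha cells 1.42), Shisa2 (2.34) and Fkbp11 (2.28), the latter below 1 in alpha cells. The alpha intervals of Slco1a6 (0.986 to 4.66) and Shisa2 (0.643 to 2.72) included 1.

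**Figure D2:**
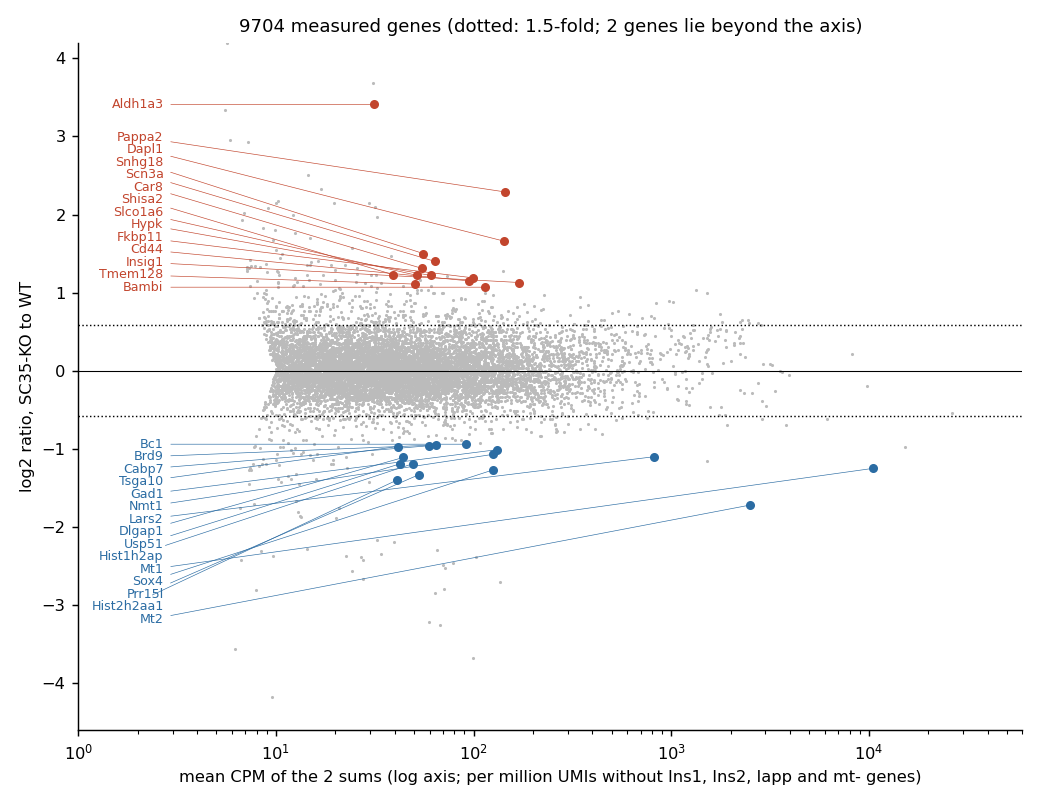
Log2 ratio of the library labelled SC35-KO to WT against the mean CPM (log axis) for the 9704 measured genes (grey), with 14 of the 15 highest (red) and the 15 lowest (blue) genes by rank named. Most genes lie between the dotted 1.5-fold lines, Aldh1a3 and Pappa2 stand above them at 10.6 and 4.88-fold, and Mt1 and Mt2 are lower at high expression (0.421 and 0.303).

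The pathway by which insulin enters the ER held several higher genes. Of 39 measured genes of ER translocation, signal peptidase and N-glycosylation, 5 were at least 1.5-fold higher and none lower, and 33 had a ratio above 1. The list median was 0.26 against 0.01 over all genes, and -0.16 against -0.42 when all UMIs were the total. Ssr4, part of the translocon-associated complex, stood at 685 and 1269 CPM (1.85, 1.83 to 1.88). Srp9, which belongs to the signal recognition particle, stood at 236 and 452 CPM (1.92), and Ost4, a small subunit of the oligosaccharyltransferase, at 165 and 285 (1.72). At the other end of the list Sec62 stood at 0.717, Srp72 at 0.786 and Srp54a at 0.826. The same list had a median of -0.07 in alpha, 0.03 in delta and 0.14 in endothelial cells.

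ER folding genes had 4 of 35 measured members higher and none lower, with the same median of 0.26. Fkbp11, a prolyl isomerase of the ER, stood at 60.3 and 138 CPM (2.28), against 0.828 in alpha cells. Sdf2l1 stood at 76.9 and 152 CPM (1.98) and the selenoprotein Selenok at 400 and 677 (1.69). By contrast Hspa5 (BiP), the Hsp70 of the ER, stood at 1230 and 948 CPM (0.770, 0.759 to 0.782), and the stress sensor Atf6 at 0.781. Among 40 genes of ER to Golgi transport 3 were higher and none lower, including Kdelr2, a receptor that returns ER proteins (128 and 232 CPM, 1.81), and Arf5 (1.78). Of 20 genes of ER-associated degradation, 19 lay within 1.5-fold. Among genes at the floor in both libraries, 2 of 39 transport genes and 0 of 19 degradation genes were higher. Side by side, the library labelled ASF-KO, which is compared with the same WT cells, had Fkbp11 at 7.94, Sdf2l1 at 7.78 and Hspa5 at 2.97.

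Genes of the Atf4 and CHOP stress arm did not share a direction. Nupr1, a stress-induced chromatin protein, stood at 1011 and 2026 CPM (ratio interval 1.98 to 2.03), Txnip at 252 and 443 (1.76) and Cebpb at 42.7 and 69.9 (1.64), while Chac1, which degrades glutathione, stood at 82.3 and 46.6 (0.566). The other 22 of 26 members lay within 1.5-fold and the median was -0.15, with 19 members below a ratio of 1 and 7 above. In oxidative stress defence 6 of 27 genes were higher and none lower, among them thioredoxin (Txn1, 89.1 and 157 CPM, 1.76) and Prdx4, an ER peroxiredoxin (31.4 and 53.3, 1.70). All 20 measured p53 targets lay within 1.5-fold, as did most of all measured genes.

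Metallothioneins, small proteins that bind zinc and copper and are induced by metals through the factor MTF1, had 2 lower members. Mt1 stood at 14742 CPM in WT and 6212 in the cells labelled SC35-KO (0.421, 0.419 to 0.424), and Mt2 at 3834 and 1163 (0.303). Per cell this was 131 and 32.5 UMIs of Mt1 and 34 and 6.08 of Mt2. The Mt1 ratio was between 0.344 and 0.482 in the 4 depth ranges and the Mt2 ratio between 0.235 and 0.383. In alpha cells the ratios were 0.461 and 0.444 at lower levels, with 1120 and 516 CPM of Mt1. The other 10 measured genes of the metallothionein and zinc list lay within 1.5-fold, including Mt3 (1.07), the zinc exporter Slc30a1 (0.717) and Mtf1 itself (0.963). In the library labelled ASF-KO the ratios to the same WT cells were 0.0355 for Mt1 and 0.0244 for Mt2.

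The promoters of both genes are shown because the pair stood lower together and because metal response elements lie there. Each runs from 250 bases before to 50 after the RefSeq start (build GRCm38.p6), both on the plus strand of chromosome 8, Mt1 at chr8:94178839-94179138 and Mt2 at chr8:94172368-94172667. Capitals mark TGCGCNC or TGCACNC, the core of the metal response element, searched on both strands.
Mt1: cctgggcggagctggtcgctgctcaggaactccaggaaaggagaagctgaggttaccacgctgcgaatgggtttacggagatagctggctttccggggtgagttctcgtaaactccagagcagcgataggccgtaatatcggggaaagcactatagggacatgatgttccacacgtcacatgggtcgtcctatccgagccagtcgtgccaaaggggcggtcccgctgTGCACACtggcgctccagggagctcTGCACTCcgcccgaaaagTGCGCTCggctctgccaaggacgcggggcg
Mt2: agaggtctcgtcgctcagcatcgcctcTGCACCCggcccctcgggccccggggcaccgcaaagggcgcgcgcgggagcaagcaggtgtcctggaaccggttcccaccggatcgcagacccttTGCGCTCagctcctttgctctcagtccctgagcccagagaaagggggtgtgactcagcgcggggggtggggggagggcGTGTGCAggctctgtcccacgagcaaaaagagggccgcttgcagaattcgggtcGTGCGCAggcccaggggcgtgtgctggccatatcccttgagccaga
The Mt1 window held 3 matches and the Mt2 window 4. Of all 32851 promoters of this length, 25.7% held at least 1 match, 1.97% at least 3 and 0.517% at least 4. A match is a run of letters and not a measured site.

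Cytosolic chaperones had no member higher and 8 of 34 lower by 1.5-fold, with a median log2 of -0.29 against 0.01 over all genes and 29 members below a ratio of 1. Among the 33 at the floor in both, 7 were lower (21.2%), against 2.03% of all genes. Dnajb1, a co-chaperone of Hsp70, stood at 279 and 157 CPM (0.562, 0.543 to 0.582), Hsph1, a nucleotide exchange factor of Hsp70, at 335 and 196 (0.586), and St13 at 517 and 307 (0.595). Dnajb6 (1.12), Hspe1 (1.09) and Cct2 (1.05) were at the other end. The list stood lower in the other classes too, at -0.62 in alpha, -0.34 in delta and -0.29 in endothelial cells, and Dnajb1 was at 0.252 in alpha cells. It was at -0.00 in the library labelled ASF-KO. Immediate early genes, which respond to stimuli within minutes, had 3 of 23 members lower and 1 higher, with Junb at 124 and 80.0 CPM (0.644). Their median was -0.25, against -0.64 in alpha, -0.54 in delta and 0.21 in endothelial cells. Among the 20 at the floor in both, 2 were lower and 0 higher.

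The Hsph1 promoter is shown as the 1 promoter among the lower chaperones with a perfect heat shock element, GAANNTTCNNGAA, searched on both strands and marked in capitals. It lies at chr5:149636287-149636586 on the minus strand.
Hsph1: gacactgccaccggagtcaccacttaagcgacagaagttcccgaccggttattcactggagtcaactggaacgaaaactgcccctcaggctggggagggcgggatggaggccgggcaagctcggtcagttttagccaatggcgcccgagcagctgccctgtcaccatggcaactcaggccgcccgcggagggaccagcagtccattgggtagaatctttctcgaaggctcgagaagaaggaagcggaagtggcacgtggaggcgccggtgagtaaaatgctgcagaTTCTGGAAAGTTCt
Of 7 lower chaperone genes with a promoter entry, 1 held the element in this window, and of 21 within 1.5-fold, 4 did. A gene counted here if any of its promoter entries held the element. Counted per promoter, which is not the same measure, 0.603% of all promoters held it. Whether heat shock and metal response letters overlap in these windows was not examined.

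Most genes of granule release and excitability lay within 1.5-fold, as did most of all measured genes. Among exocytosis genes at the floor in both libraries, 11.1% were lower and none higher. For ion channels the shares were 7.41% lower and 3.70% higher, against 2.03% and 3.29% of all genes. Of 27 measured exocytosis genes 3 were lower and none higher: Rims3 of the release site at 157 and 90.4 CPM (0.575), the granule tether Sytl4 at 232 and 153 (0.657) and Exph5 at 67.6 and 45.0 (0.666). Cacna1d, a calcium channel of beta cells, stood at 331 and 193 CPM (0.582, 0.564 to 0.601) and Itpr3, an IP3 receptor, at 54.9 and 33.2 (0.604). Of the 27 measured ion channel genes of electrical activity, 2 were lower, 24 lay within 1.5-fold and 1, Scn3a, was higher, with a median of -0.05. The SNARE genes Snap25 (1.21) and Vamp2 (1.16) lay within 1.5-fold. Among processing enzymes Pcsk2, a prohormone convertase, stood at 7450 and 4836 CPM (0.649), Pcsk1 at 325 and 417 (1.28), Cpe at 0.999 and the amidating enzyme Pam at 604 and 980 (1.62). Scgn, a calcium-binding protein of endocrine cells, stood at 467 and 292 CPM (0.625), and the granule protein Resp18 at 1778 and 2798 (1.57).

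Ribosomal protein genes and complex I held members on both sides. Of 77 cytosolic ribosomal protein genes, 63 had a ratio above 1 and 5 were 1.5-fold higher, with a median log2 of 0.31, but -0.12 against -0.42 over all genes when all UMIs were the total. Rpl9 stood at 1328 and 2200 CPM (1.66). Against the list, Rps29 stood at 4717 and 2899 CPM (0.615), Rps28 at 2372 and 1458 (0.615) and Rpl38 at 3508 and 2283 (0.651). Complex I had 3 of 38 members higher, among them Ndufb3 (1.58), and Ndufb1-ps lower (0.654). ATP synthase had none of 18 higher and Atp5k lower (569 and 323 CPM, 0.569). These 5 low genes were between 0.435 and 0.598 in alpha, delta and endothelial cells of the same libraries as well.

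**Figure D3:**
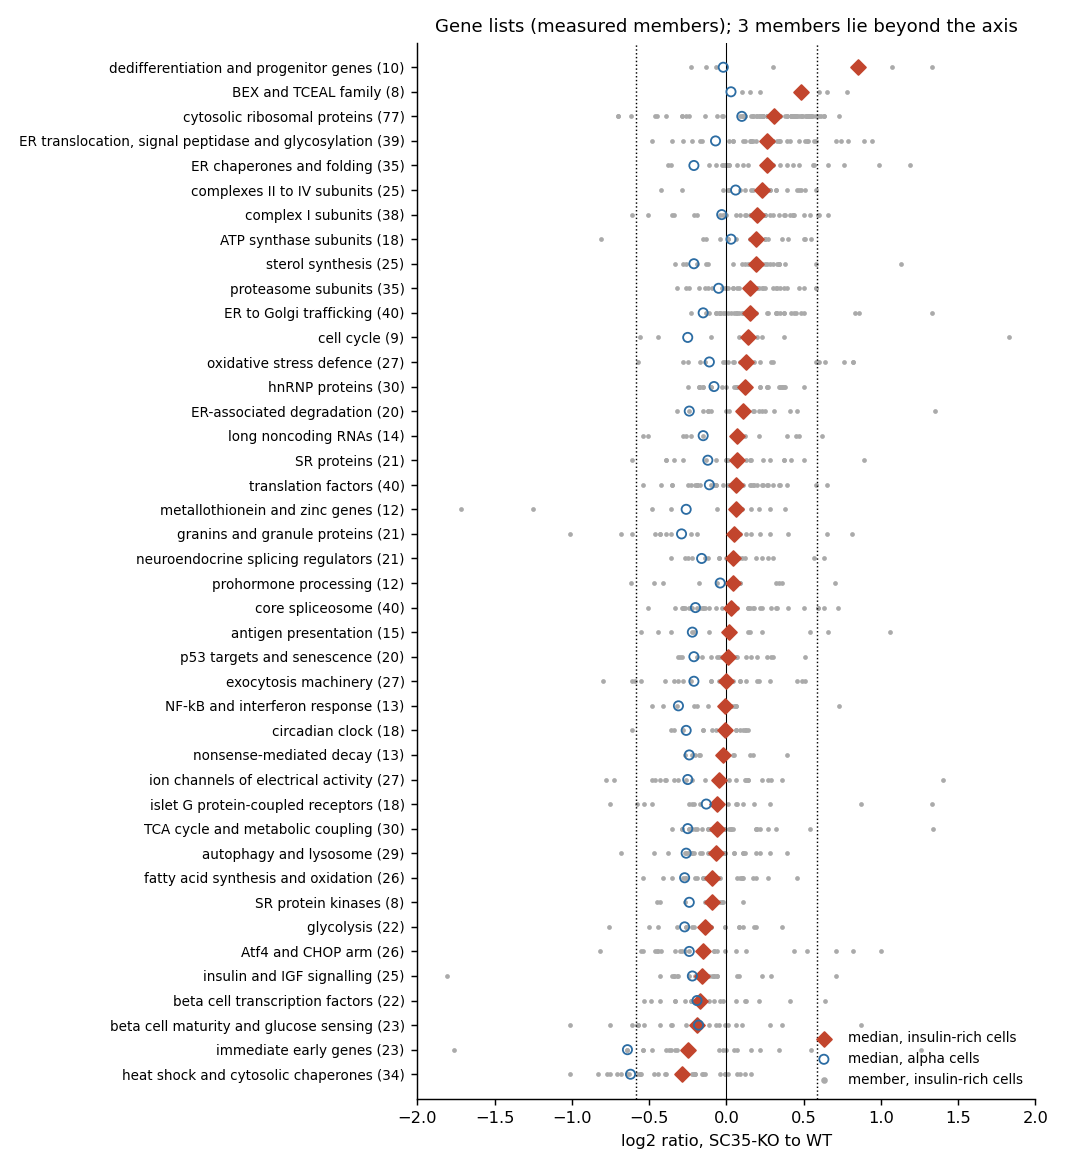
Log2 ratio of the library labelled SC35-KO to WT for each measured member (grey) of the gene lists, with the list median in insulin-rich cells (red diamond) and in alpha cells (blue circle), ordered by the former. Marker lists of other cell types and mitochondrially encoded genes are not drawn; of the lists drawn, dedifferentiation genes have the highest median (0.85, alpha -0.02) and cytosolic chaperones the lowest (-0.29, alpha -0.62); when all UMIs are the total every red value is 0.43 lower.

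Metabolic and housekeeping groups mostly lay within 1.5-fold, but only 7.20% of all measured genes lay past it either way. All 26 measured genes of fatty acid synthesis and oxidation, all 25 subunits of respiratory complexes II to IV and all 35 proteasome subunits did so, with median log2 ratios of -0.09, 0.23 and 0.15. Of 22 glycolysis genes 1 was lower, with a median of -0.14, and of 30 genes of the TCA cycle and metabolic coupling 1 was higher, with a median of -0.06. Insulin and IGF signalling had 2 of 25 members higher and 1 lower (median -0.16), and the list of autophagy and the lysosome had 1 of 29 lower (median -0.07). Among 9 measured cell cycle genes 1 was higher. The higher TCA gene, the lower signalling gene and the higher cell cycle gene each reached the floor in 1 library only. Among genes at the floor in both, 0 of 29 TCA genes and 0 of 6 cell cycle genes were higher. Of the 23 such signalling genes, 2 were higher and 0 lower.

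The remaining lowest genes by rank included 2 replication-type histone genes, whose near-identical copies make counts uncertain: Hist2h2aa1 at 59.3 and 22.5 CPM (0.380) and Hist1h2ap at 68.6 and 30 (0.438). Both were lower in alpha cells too, at 0.272 and 0.278. Sox4, a transcription factor of endocrine development, stood at 177 and 73.4 CPM (0.415, 0.395 to 0.436), against 0.618 in alpha and 1.37 in endothelial cells. Lars2, the mitochondrial leucyl-tRNA synthetase, stood at 1120 and 521 CPM (0.465), Nmt1, which attaches myristate to proteins, at 170 and 80.9 (0.477), and Brd9, a subunit of a chromatin remodelling complex, at 85.0 and 44.0 (0.518). All 3 were lower in alpha, delta and endothelial cells. Prr15l (0.397), Usp51 (0.440), the synaptic scaffold Dlgap1 (0.463), Tsga10 (0.512), the calcium-binding Cabp7 (0.513) and the noncoding Bc1 (0.522) complete the 15.

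**Figure D4:**
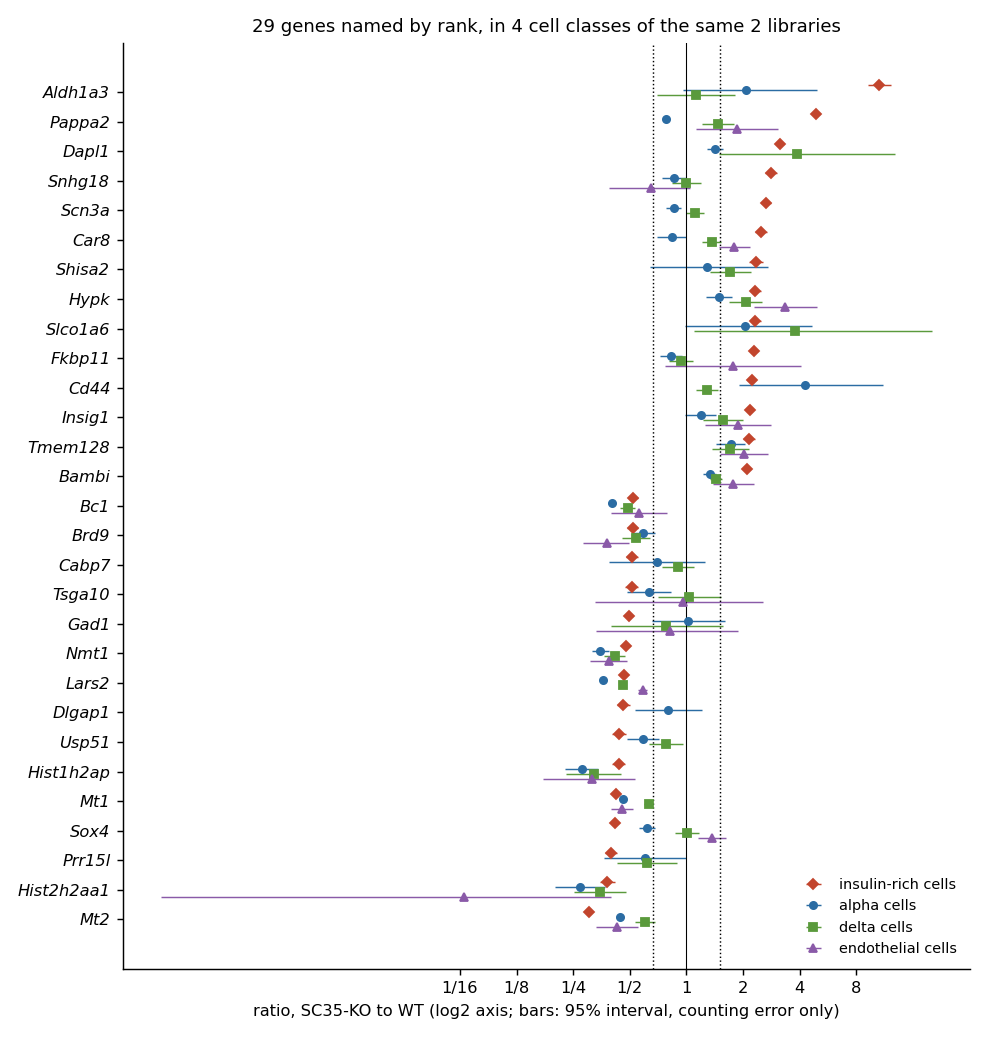
Ratio of the library labelled SC35-KO to WT (log2 axis, bars are 95% intervals for counting error) for 29 of the 30 genes chosen by rank, in insulin-rich, alpha, delta and endothelial cells. Pappa2, Scn3a, Car8 and Snhg18 lie above 2 in insulin-rich cells and at 0.776, 0.855, 0.835 and 0.859 in alpha cells, where the median of all genes is 0.889, while Lars2, Nmt1 and Brd9 are lower in each class.

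Short genes gave more high ratios than long ones. Among measured genes with a position in the gene annotation, the shortest 1940 genes by genomic span (168 to 8184 base pairs) had a median log2 of 0.13 with 9.12% at least 1.5-fold higher, and the longest 1940 (over 72503) had -0.09 with 3.66% higher. Genes with 2 or 3 exons had 10.1% higher and those with over 10 exons 1.76%. Alpha cells ran from -0.11 to -0.21 over the same span groups, while delta and endothelial cells stayed between 0.04 and 0.14. Genes in a span group are not replicates, and whether span, transcript length or RNA quality goes with the ratio was not tested. None of the gene lists was compared with genes of like span.

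The BEX and TCEAL family stood on 1 side. All 8 measured members of this family of small X-linked genes had a ratio above 1, with 3 at least 1.5-fold higher. The median was 0.48, against 0.01 over all measured genes. Bex4 stood at 161 and 276 CPM (1.71), Tceal1 at 37.8 and 59.2 (1.57) and Tceal8 at 84.9 and 128 (1.51), while Bex3 stood at 1.07. When all UMIs were the total the median was 0.05, against -0.42 over all genes. The list was chosen with earlier results of these data known, so its side is no independent support.

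RNA of other cell types also differed in the insulin-rich cells. Of 23 measured acinar genes 22 were lower, with the sum of the list at 1996 CPM in WT and 345 labelled SC35-KO. Among the 15 at the floor in both, 14 were lower. In endothelial cells the sum was 2047 and 403. Sst, the hormone of delta cells, stood at 885 and 1803 CPM in insulin-rich cells and at 887 and 3653 in endothelial cells. The rule limited Sst, and its median share of an insulin-rich cell's UMIs was 0.0172% and 0.0161%. Across settings the ratio of the Sst sums ran from 1.45 to 3.58. Gcg stood at 2187 and 3348 CPM, and at 3477 and 7190 in endothelial cells. In each case the endothelial level was at or above that in the insulin-rich cells. Of the 43 listed acinar genes, 4 and 7 were at 0 UMIs in the insulin-rich cells. Globin Hbb-bs, named outside the rule, was at 4.48 and 57.5 CPM, against 47.1 and 2083 in endothelial cells. Alpha cells numbered 1093 and 2257 and delta cells 609 and 1314 in the 2 libraries.

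Markers of further cell types were summed in the same way. The immunoglobulin genes Igkc and Ighm were on the lower side, at 123 and 3.02 CPM and at 22.4 and 0.223, and the T and B cell list summed to 283 and 66 CPM, with 9 of its 25 genes at 0 UMIs labelled SC35-KO. Endothelial markers summed to 192 and 150 CPM, stromal ones to 196 and 159, ductal ones to 1293 and 1327, and macrophage and dendritic ones to 240 and 256. Krt19, a defining ductal marker, stood at 2.64 and 0.782 CPM and the pan-leukocyte Ptprc at 1.74 and 0.261. With cells holding at least 1% of scaling UMIs from such markers left out, 447 genes were higher and 265 lower, against 431 and 268. Of the 124 named genes past 1.5-fold, all 124 stayed past it there. The part of depth, free RNA and cell makeup in each ratio was not tested beyond these values.

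The direction of the ratios was counted in cells of different depth and insulin content. Of the 699 genes past 1.5-fold, 660 of 673 with enough counts kept their direction in cells of 1000 to 10000 UMIs, 694 of 697 at 10000 to 20000, 699 of 699 at 20000 to 40000 and 682 of 695 above. Across insulin shares of 25 to 50%, 50 to 65% and over 65% the counts were 672 of 697, 699 of 699 and 673 of 694. Genes past 1.5-fold were chosen on the pooled cells, so these counts describe direction only, not the size of the ratios, and are no independent support.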

How the data were processed

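Per library, the deposited matrix gives raw UMI counts (gene by barcode, whole numbers, no normalization), made with Cell Ranger 5.0.0 per the file headers. The submitters' processing notes also name STAR, Seurat and mm10, without their roles. Counts of insulin-rich cells were summed per library and scaled to the UMIs of all genes other than Ins1, Ins2, Iapp and mt- genes. Sums carry exact Poisson intervals, ratios the exact conditional binomial interval. No test was run, since each genotype has 1 library. The ratio script was checked on simulated counts.

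Named genes are the 15 highest and 15 lowest by the interval bound nearest to 1, among genes at 50 CPM and 20 UMIs or more in either sum. Mitochondrially encoded, ribosomal protein, Y-linked and unnamed genes, Xist, Tsix and markers of other cell types were left out of these. So were genes over 10 times higher in another class of the library where they are higher in insulin-rich cells. From each list the 3 highest and 3 lowest members at 50 CPM could be named too, or any member of lists with up to 12 measured. Some results are not reported here. The members and all 52 lists were chosen with earlier results of these data known.

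Alpha cells had Gcg at 10% or more of UMIs and delta cells Sst at 10% or more, both with insulin under 25%. Endothelial cells had at least 5 UMIs and 1% of UMIs from their markers and were not insulin-rich. Hematopoietic cells, used only to leave out genes, had Ptprc or immune marker UMIs at a threshold set after the data were seen. Doublets were kept: Scrublet marked 291 of 9288 kept WT cells (3.13%) and 886 of 11685 (7.58%) labelled SC35-KO, 80 and 151 of them insulin-rich. Promoters are from RefSeq (GRCm38.p6), and gene spans from the gene annotation of GRCm38, which matched 9699 of 9704 measured genes. Alternatives covered scaling, floors, cell filters, doublets, thinning and depth matching. Scrublet came with scanpy 1.11.5. Intervals used scipy 1.17.1, and tables pandas 2.3.3 on numpy 2.4.6 (python 3.11.15).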

Additional observations from a re-analysis of the deposited data

Results flagged for a closer look

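A few marker genes of other cell types were at least 1.5-fold to one side in insulin-rich cells and to the other in another class of the same 2 libraries. These differences were not tested. The MHC class II genes of antigen-presenting cells were lower in insulin-rich cells, at 0.480 for Cd74, 0.482 for H2-Aa, 0.477 for H2-Ab1 and 0.487 for H2-Eb1. In alpha cells they stood at 2.79, 3.39, 2.56 and 3.58 in the same order, and in endothelial cells at 4.02, 4.57, 2.82 and 4.83. Delta cells were on the lower side too, at 0.0564, 0.0978, 0.141 and 0.0774. In insulin-rich cells all 4 were at 41.5 CPM or less in WT.

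Fcer1g, a myeloid gene, stood at 1.78 in insulin-rich and 0.415 in delta cells, and Ly6c1, an endothelial gene, at 0.543 and 4.21 (1.88 to 11.1) in the same classes. Sparc, a matrix protein, stood at 0.385 in insulin-rich and 2.02 in alpha cells. Cd9, a tetraspanin, stood at 0.365 in insulin-rich and 1.97 in endothelial cells.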

How the results depend on the processing

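Scaled to all UMIs, 100 genes were at least 1.5-fold higher and 2545 lower, against 431 and 268, Srsf2 stood at 0.962, and the median log2 of all measured genes was -0.42. With the floor at 50 CPM the counts were 172 and 124, and with 3 UMIs in place of a CPM floor 2486 and 2068. Under the other 11 settings they stayed within 1.5 times. Of 124 named genes past 1.5-fold none turned, and 76 stayed past it when scaled to all UMIs, 113 when cells were matched in scaling UMIs (a setting chosen after seeing the data) and 119 to 124 elsewhere. The macrophage and dendritic list median turned to 0.85 without cells at 1% of other-type markers, and the endothelial list to 0.41 when matched in scaling UMIs. These list medians are given less the median of all measured genes. In the main setting they were -1.06 and -0.35, from 6 and 11 measured members. Members were chosen anew by the floor in each setting, so they can differ. No paired analysis was possible because each genotype has 1 library. Depth limits genes near 10 CPM, and the spread between mice is unknown.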
